A study of Macaca mulatta with 2 samples.

Results

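Axon guidance ligands and receptors were examined in the optic nerve of the rhesus macaque, *Macaca mulatta*. The members were chosen by gene symbol alone as the class 3 to 7 semaphorins, plexins, ephrins, Eph receptors, Slits, Robos, netrins and UNC5 receptors, which gave 66 of the 16684 listed genes. They were 35 ligands (20 semaphorins, 8 ephrins, 3 Slits and 4 netrins) and 31 receptors (9 plexins, 14 Eph receptors, 4 Robos and 4 UNC5 receptors). Total RNA of wild-type, untreated optic nerves was sequenced as 2 libraries of 1 condition, named Rep1 and Rep2. The methods give a single 12-year-old male whose eyes were collected postmortem, whereas the design text speaks of 2 macaques. Whether the libraries come from 1 animal or from 2 is thus not settled. There was no second condition, and the difference between Rep1 and Rep2 is therefore the spread between samples of the same kind, which may be technical. The values are TPM, a transcript level in which reads are divided by gene length and scaled so that every library has the same total, so levels can be compared between genes of 1 library. With n = 2, the value in each library is given in place of an error bar.

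Guidance cues are secreted or membrane-bound proteins that attract or repel the growing tip of an axon. Semaphorins act through plexins, the secreted class 3 members together with neuropilins. Ephrins act through Eph receptor tyrosine kinases, Slits through Robos, and netrins through DCC, neogenin and the UNC5 receptors. In the developing visual pathway they direct the axons of retinal ganglion cells into the optic nerve, across or away from the midline at the optic chiasm, and to their map positions in the brain. In the adult many of them are made by glia, vessels and meninges, and the optic nerve holds the axons of ganglion cells but not their cell bodies.

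The libraries differed in depth and make-up. The TPM of 1 read in Rep1 equalled that of 17.2 reads in Rep2, and 38.5% of listed genes were at 0 in Rep1 against 12.5% in Rep2. Markers of oligodendrocytes and astrocytes, which define the tissue, were above 0 in both libraries (10 of 10 and 7 of 7) but lower in Rep1, with a summed level of 46111 against 212863 TPM for the first list and 1098 against 7321 TPM for the second. *MBP* alone gave 43721 TPM in Rep1 and 199595 TPM in Rep2 of the oligodendrocyte sums. Photoreceptor markers went the other way. Their summed level was 3936 TPM in Rep1 against 8.01 TPM in Rep2, 6 of 9 were at least 2-fold higher in Rep1, and *CRX* was listed at 0 in Rep2. *GNAT1* alone gave 2763 TPM of the Rep1 sum, and *SAG* was level at 1.74 and 1.82 TPM. Fewer cells of a type and less RNA per cell cannot be told apart in such bulk samples. Markers of ganglion cells and neurons summed to 225 TPM in Rep1 and 205 TPM in Rep2, 6 of 8 being above 0 in either library, but single genes went opposite ways. *RBPMS*, at 155 and 99.9 TPM, gave most of the Rep1 sum, *ELAVL4* was higher in Rep1 (39.0 against 0.795 TPM) and *SNCG* lower (20.0 against 84.5 TPM). The ganglion cell gene *POU4F2* and *SLC17A6* were listed at 0 in both.

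The guidance genes were widely detected and mostly low. At a mean of at least 1 TPM there were 53 of the 66 members (80.3%), against 70.5% of all listed genes. At a mean of at least 10 TPM there were 19 (28.8%), against 43.3% of all listed genes. In Rep2, 55 members reached 1 TPM and 24 reached 10 TPM, whereas in Rep1 40 and 11 did. Both libraries had 8 members at 10 TPM or more, namely *SEMA3C*, *SEMA4A*, *SEMA6A*, *PLXNB2*, *EFNA1*, *EFNB1*, *EPHA4* and *SLIT2*, or 12.1% of the members against 27.0% of all listed genes. Only *EPHA6*, *EPHA8* and *EPHA10* among the members were listed at 0 in both libraries. A further 16 members were listed at 0 in Rep1 alone and none in Rep2 alone. Of the members at 1 TPM or more in Rep2, 12 of 55 (21.8%) were listed at 0 in Rep1, against 20.6% of all genes at that level, so these zeros do not show absence. Together the members made up 459 TPM in Rep1 and 990 TPM in Rep2.

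**Figure D1:**
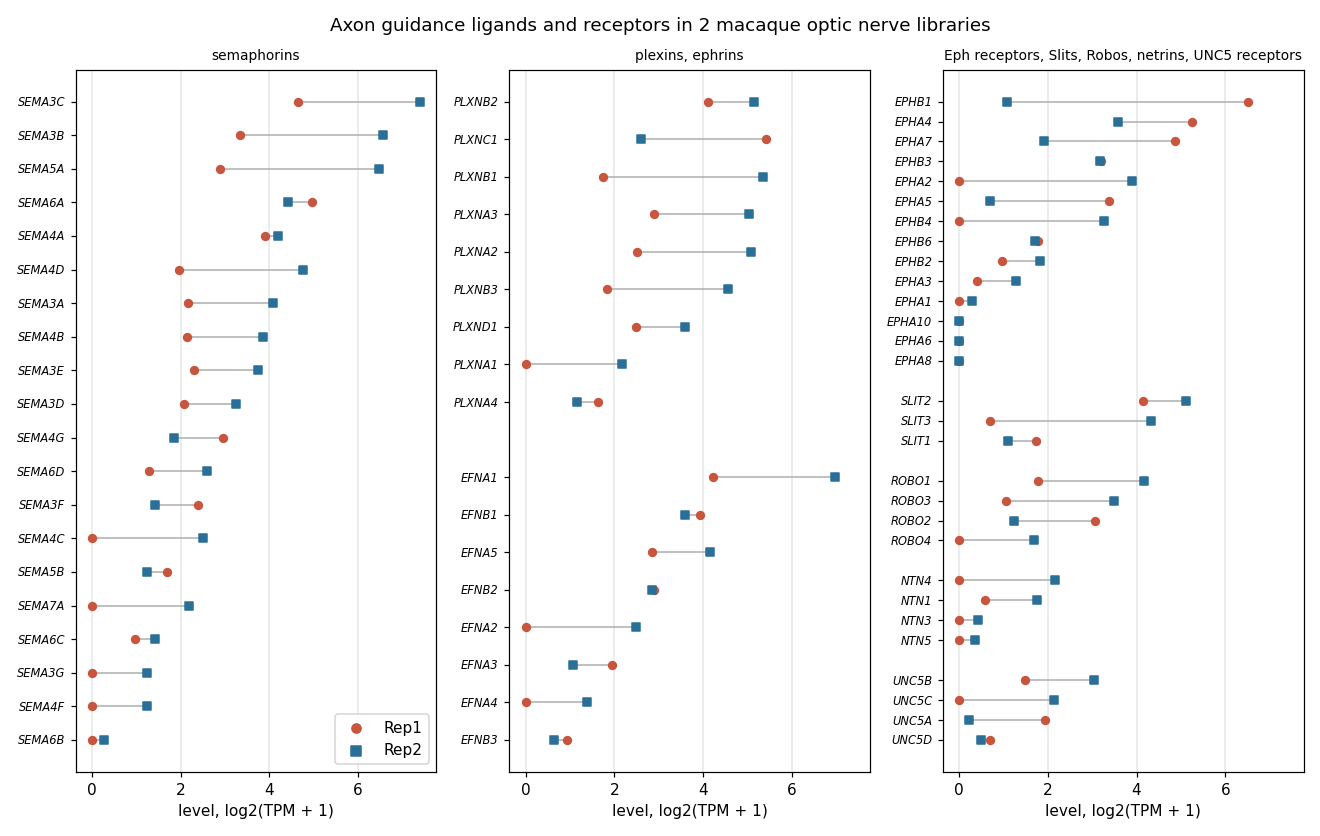
Level of each of the 66 members in Rep1 (circles) and Rep2 (squares) as log2(TPM + 1), ordered by mean TPM within each family. *SEMA3C*, *SEMA3B*, *SEMA5A* and *EFNA1* lie far to the right in Rep2, and *EPHB1*, *EPHA7* and *PLXNC1* in Rep1.

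The semaphorins were the most abundant family in Rep2, and the secreted class 3 led them. *SEMA3C*, on chromosome 3 from 125271188 to 125450284, was at 23.9 TPM in Rep1 against 167 TPM in Rep2, a mean of 95.6 ± 101 TPM (SD, n = 2), and was first of all members by mean log2(TPM + 1), by 0.275 single-library SDs over *EFNA1*. The single-library SD was estimated for each gene from how far Rep1 and Rep2 differed in the 200 genes of closest level. The differences were taken about 0, so the shift between the libraries, a median of -1.07 over all genes, is counted in this SD and enlarges it. In Rep1 alone *EPHB1*, *PLXNC1*, *EPHA4*, *SEMA6A* and *EPHA7* stood above *SEMA3C*. The 2 values of *SEMA3C* rested on at least 19 and 2285 reads, the smallest whole numbers that give the ratio of the deposited values. *SEMA3B*, another secreted member, was at 9.09 TPM in Rep1 against 92.7 TPM in Rep2, again at least 2-fold higher in Rep2. *SEMA5A*, a membrane semaphorin made in the oligodendrocyte lineage and known to inhibit the growth of retinal axons, was at 6.41 TPM in Rep1 against 87.6 TPM in Rep2. *SEMA6A*, a membrane ligand of the A-type plexins, differed less, with 30.0 TPM in Rep1 against 20.5 TPM in Rep2, and was the highest semaphorin of Rep1.

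The other semaphorins were lower. *SEMA4D*, a ligand of plexin-B1 made by oligodendrocytes, had a mean of 14.5 TPM, and *SEMA4A* had 15.7 TPM. The Rep1 value of *SEMA4A*, 14.0 TPM, may rest on as little as 3 reads. *SEMA3A*, the prototype growth cone collapsing factor, had 9.63 TPM, *SEMA4B* 8.46 TPM, *SEMA3E*, the ligand of plexin-D1, 8.13 TPM, *SEMA3D* 5.86 TPM and *SEMA6D* 3.23 TPM. *SEMA5B* and *SEMA6C* had means of 1.79 and 1.31 TPM. *SEMA3G*, *SEMA4C*, *SEMA4F*, *SEMA6B* and *SEMA7A*, the GPI-anchored ligand of plexin-C1, were listed at 0 in Rep1 and stood at 0.200 to 4.64 TPM in Rep2. Here and below, a difference of at least 2-fold is taken on the log2(TPM + 1) scale, where the added 1 TPM shrinks the differences of low genes. *SEMA4G* was past it in Rep1, with 6.78 TPM against 2.61 TPM in Rep2 and a log2 difference of 1.11. Its span overlaps *MRPL43* on the opposite strand, and without strand, reads of any shared exons could not be told apart. *SEMA3F*, at 4.22 TPM in Rep1 against 1.66 TPM in Rep2, lay just under the 2-fold threshold with 0.97. In all, 11 of the 17 semaphorins whose mean reached 1 TPM were at least 2-fold higher in Rep2, 1 in Rep1, and 5 differed less. Among all genes at that mean, 58.7% were at least 2-fold higher in Rep2 and 18.2% in Rep1, so a count of this kind is no mark of the family.

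*SEMA3D*, *SEMA3A*, *SEMA3E* and *SEMA3C* lie in this order on the plus strand of chromosome 3 within 4487 kb. *SEMA3C* was the highest of the 4 in both libraries, and in Rep2 it was 19.6 times as high as *SEMA3D*, the lowest. On the mean log2(TPM + 1) it exceeded *SEMA3A* by 2.90 and *SEMA3D* by 3.36, with *SEMA3E* between them. By library, it exceeded *SEMA3D* by 2.58 in Rep1 and 4.14 in Rep2. The gaps to *SEMA3A*, *SEMA3D* and *SEMA3E* were 1.78, 1.96 and 1.87 single-library SDs.

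Plexins were expressed at moderate levels, with the B type leading in Rep2. *PLXNB1* was at 2.37 TPM in Rep1 against 40.1 TPM in Rep2. *PLXNB2*, also a receptor of class 4 semaphorins, was at 16.4 TPM in Rep1 against 34.3 TPM in Rep2, the smallest gap of the B type. Its Rep1 value may rest on as little as 1 read. *PLXNA3*, on the X chromosome from 150382519 to 150398311, was at 6.44 TPM in Rep1 against 31.7 TPM in Rep2. *PLXNC1*, on chromosome 11 from 93956372 to 94115273, went the other way, with 42.0 TPM in Rep1 against 5.05 TPM in Rep2, on at least 15 and 31 reads, and it overlaps 2 unnamed genes on the opposite strand. Its ligand *SEMA7A* was at 3.57 TPM in Rep2 but listed at 0 in Rep1.

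Of the remaining plexins, *PLXNA2* had a mean of 18.7 TPM, *PLXNB3*, a receptor of *SEMA5A* enriched in oligodendrocytes, 12.7 TPM, *PLXND1* 7.84 TPM and *PLXNA4* 1.65 TPM, whereas *PLXNA1* was at 3.54 TPM in Rep2 but listed at 0 in Rep1. At least 2-fold higher in Rep2 were 7 of 9 plexins, beside 58.7% of all genes, and in Rep1 only *PLXNC1* among the plexins, a count that was 1 of 9 beside 18.2%. The family's median log2 difference (Rep1 minus Rep2) was -2.14, against -1.07 over the 14693 listed genes above 0 in at least 1 library.

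Ephrins were dominated by *EFNA1*, a GPI-anchored ligand of EphA receptors that vessels also make. *EFNA1*, on chromosome 1 from 95894746 to 95903461, was at 17.6 TPM in Rep1 against 126 TPM in Rep2, on at least 23 and 2819 reads. It was the highest ephrin in both libraries, and on the mean log2 scale it exceeded *EFNB1*, the next, by 1.84, or 1.15 single-library SDs. The transmembrane ephrins differed little between the libraries. *EFNB1* was at 14.3 TPM in Rep1 against 11.0 TPM in Rep2, and *EFNB2*, a marker of arteries and the ligand that turns retinal axons at the chiasm, was at 6.42 and 6.25 TPM. *EFNA5*, a graded repellent of retinal axons in the midbrain, was at 6.20 TPM in Rep1 against 16.9 TPM in Rep2. *EFNB3* had a mean of 0.736 TPM, and *EFNA2* was at 4.59 TPM in Rep2 but listed at 0 in Rep1.

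*EFNA1*, *EFNA3* and *EFNA4* are neighbours on the minus strand of chromosome 1 within 74.7 kb, yet their levels were far apart. *EFNA3* was at 2.86 TPM in Rep1 against 1.11 TPM in Rep2, and *EFNA4* was listed at 0 in Rep1 and at 1.63 TPM in Rep2. In Rep2 *EFNA1* was 113 times as high as *EFNA3*, and on the mean log2 scale the gap was 4.09, or 2.63 single-library SDs. By library, the log2 gap was 2.27 in Rep1 and 5.91 in Rep2, so its size differed much between them. The 250 bases before the RefSeq-annotated start of each gene are shown to set these unequal neighbours side by side, 5′ to 3′ on the minus strand of Mmul_10 and with CG in capitals. They lie at chr1:95903462-95903711, chr1:95952369-95952618 and chr1:95969396-95969645.
EFNA1: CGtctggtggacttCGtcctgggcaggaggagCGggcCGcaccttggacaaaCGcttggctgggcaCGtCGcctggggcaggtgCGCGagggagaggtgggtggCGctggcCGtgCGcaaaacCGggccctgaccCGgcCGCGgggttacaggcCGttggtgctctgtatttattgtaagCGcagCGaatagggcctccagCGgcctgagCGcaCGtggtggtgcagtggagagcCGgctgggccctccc
EFNA3: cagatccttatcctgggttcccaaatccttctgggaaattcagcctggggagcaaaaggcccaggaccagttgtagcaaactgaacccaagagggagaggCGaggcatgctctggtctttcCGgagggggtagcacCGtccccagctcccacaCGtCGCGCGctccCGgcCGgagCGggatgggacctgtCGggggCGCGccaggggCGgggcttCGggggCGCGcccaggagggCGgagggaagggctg
EFNA4: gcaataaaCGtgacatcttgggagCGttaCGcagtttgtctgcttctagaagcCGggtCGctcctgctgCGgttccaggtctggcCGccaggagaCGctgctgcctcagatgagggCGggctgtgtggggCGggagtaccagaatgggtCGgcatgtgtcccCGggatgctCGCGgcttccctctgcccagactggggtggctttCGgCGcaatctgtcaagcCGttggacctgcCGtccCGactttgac
The window of *EFNA1* held 23 CG and was 68.8% G or C, that of *EFNA3* 18 CG and 67.2%, and that of *EFNA4* 19 CG and 62.8%. All were above the median of 14 CG and 59.2% over 16263 listed protein-coding genes, and the members' medians were 19 CG and 67.4%. The letters GGGCGG, searched on both strands, were in the windows of *EFNA3* and *EFNA4* but not of *EFNA1*, and in 48.5% of all windows and 63.6% of those of the members. None of the 3 held TATAAA, found in 8.36% of all windows. These are matches of letters at annotated starts and not measured sites.

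Eph receptors were the family in which the libraries differed most in make-up. *EPHB1*, on chromosome 2 from 37002133 to 37461334, is the receptor by which some retinal axons avoid the midline at the chiasm. It was at 90.7 TPM in Rep1 against 1.12 TPM in Rep2, on at least 52 and 11 reads, a log2 difference of 5.44 and the largest of any member in either direction. An unnamed annotated gene, LOC114676249, overlaps its span on the same strand. Reads may be shared where exons overlap, which was not examined. *EPHA4*, which binds both classes of ephrin and is made by neurons and astrocytes, was at 37.2 TPM in Rep1 against 10.9 TPM in Rep2. *EPHA7* was at 28.2 TPM in Rep1 against 2.78 TPM in Rep2, on at least 121 and 205 reads. *EPHA5*, which with *EPHA7* and others reads the graded ephrins of the visual map, was at 9.39 TPM in Rep1 against 0.611 TPM in Rep2.

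Other Eph receptors were level or went the opposite way. *EPHB3* was at 8.13 TPM in Rep1 against 8.04 TPM in Rep2, on at least 1 and 17 reads, so its Rep1 level is uncertain. *EPHA2* was at 13.8 TPM in Rep2, the highest Eph receptor there, and *EPHB4*, a marker of veins that pairs with *EFNB2*, was at 8.58 TPM, and both were listed at 0 in Rep1. *EPHB2* was at 0.940 TPM in Rep1 against 2.53 TPM in Rep2, a log2 difference of -0.87, *EPHB6* and *EPHA3* had means of 2.36 and 0.868 TPM, and *EPHA1* was at 0.229 TPM in Rep2 and 0 in Rep1. Of the 9 Eph receptors whose mean reached 1 TPM, 4 were at least 2-fold higher in Rep1, 2 in Rep2 and 3 were under 2-fold on the log2(TPM + 1) scale, beside 18.2% and 58.7% of all genes higher in Rep1 and Rep2.

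Within the members' summed TPM, a share that does not depend on scaling between the libraries, Eph receptors made up 38.6% in Rep1 and 5.29% in Rep2. *EPHB1* alone was 19.8% of the sum in Rep1 and 0.113% in Rep2, and without it the Eph share was 23.5% against 5.18%. Semaphorins made up 25.2% in Rep1 and 49.0% in Rep2, ephrins 10.5% and 17.0%, and plexins 17.7% and 18.4%. Ligands together made up 40.2% in Rep1 and 72.0% in Rep2, and receptors the rest, of which *EPHB1* was a large portion in Rep1. The photoreceptor markers described above also had a higher sum in Rep1. The ganglion cell and neuron markers were mixed. *ELAVL4* and *RBPMS* were higher in Rep1, *SNCG* (20.0 against 84.5 TPM) and *NEFM* (7.48 against 15.9 TPM) lower, and *NEFL* level (3.63 and 3.65 TPM). The part of either list in the Eph receptor values was not tested.

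**Figure D2:**
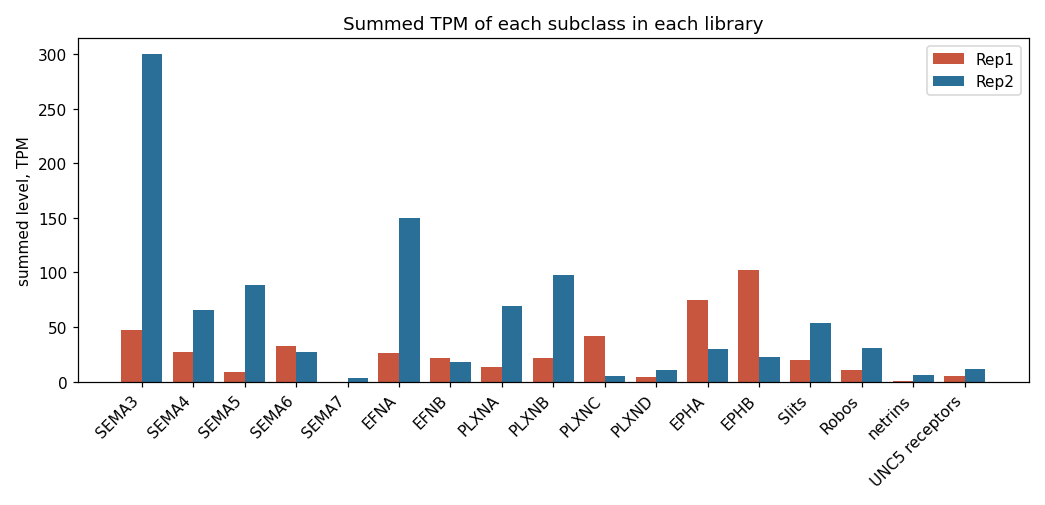
Summed TPM of each subclass in Rep1 and Rep2. Class 3 semaphorins (SEMA3) reach 300 TPM in Rep2 against 47.8 TPM in Rep1, and EphB receptors (EPHB) 102 TPM in Rep1 against 22.5 TPM in Rep2.

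Among the Slits, repellents that keep retinal axons on course at the chiasm, *SLIT2* was the highest in both libraries. It was at 16.7 TPM in Rep1 against 33.4 TPM in Rep2, on at least 13 and 446 reads. *SLIT3* was at 0.625 TPM in Rep1 against 19.2 TPM in Rep2, where the lower value may rest on as little as 1 read. *SLIT1*, which is largely neuronal, was at 2.33 and 1.15 TPM. On the mean log2 scale *SLIT2* exceeded *SLIT3* by 1.14 and *SLIT1* by 1.94 single-library SDs. Introns of *SLIT2* and *SLIT3* hold the 2 genes of the microRNA miR-218, and both microRNA genes were listed at 0 in both libraries. The mature sequence is shown because hosts and guests share these loci, from the RefSeq transcripts at chr5:19496253-19496273 on the plus strand and chr6:166169592-166169612 on the minus strand, with T for U and the seed (bases 2 to 8) in capitals.
MIR218-1 in SLIT2: tTGTGCTTgatctaaccatgt
MIR218-2 in SLIT3: tTGTGCTTgatctaaccatgt
The letters were the same in both. The library kit starts from poly(A) tails, which mature microRNAs lack, and nothing is read from these zeros about the level of miR-218.

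The Robo receptors were low. *ROBO1* was at 2.44 TPM in Rep1 against 16.9 TPM in Rep2. *ROBO3*, which in mammals acts in midline crossing, was at 1.07 and 10.2 TPM, where the lower value may rest on 1 read. *ROBO4*, the endothelial member and a neighbour of *ROBO3* on chromosome 14, was listed at 0 in Rep1 and at 2.21 TPM in Rep2. *ROBO2*, the main Slit receptor of retinal ganglion cells, was higher in Rep1, with 7.39 TPM against 1.34 TPM in Rep2, on at least 9 and 28 reads. Many unnamed annotated genes on both strands overlap the span of *ROBO2*, and reads may be shared where exons overlap, which was not examined.

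Netrins were the lowest family, summing to 0.499 TPM in Rep1 and 6.46 TPM in Rep2. *NTN1*, which draws retinal axons into the nerve head during development, was at 0.499 TPM in Rep1, a value that may rest on 1 read, and at 2.38 TPM in Rep2. *NTN4*, a netrin of basement membranes, was at 3.45 TPM in Rep2, *NTN3* at 0.347 TPM and *NTN5* at 0.282 TPM, and all 3 were listed at 0 in Rep1. Among their repulsive receptors, *UNC5B*, which is also endothelial, was at 1.78 TPM in Rep1 against 7.28 TPM in Rep2. *UNC5C* was listed at 0 in Rep1 and at 3.42 TPM in Rep2, and *UNC5D* was at 0.607 and 0.406 TPM. *UNC5A* was at 2.80 TPM in Rep1 against 0.163 TPM in Rep2, where the smallest read numbers were 1 and 1, and it overlaps *HK3* on the opposite strand.

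*DCC*, *NEO1* and the neuropilins, partners of these families outside the symbol rule, were more abundant than the netrins. *DCC*, the attractive netrin receptor, was at 12.6 TPM in Rep1 against 9.13 TPM in Rep2, and *NEO1*, which binds netrins and repulsive guidance molecules, at 66.1 and 36.3 TPM. On the mean log2 scale *NEO1* exceeded *NTN1* by 4.47, or 3.07 single-library SDs, and it exceeded *DCC* by 1.29 SDs. The neuropilins, co-receptors of class 3 semaphorins, changed order between the libraries. *NRP1* was at 14.8 TPM in Rep1 against 9.06 TPM in Rep2, and *NRP2* at 5.73 and 44.1 TPM.

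Of 58 companion genes (co-receptors, other cues and cytoplasmic effectors), 57 were listed, and 38 had a mean of at least 10 TPM. The highest were *RHOA*, a small GTPase that drives growth cone collapse, at 2689 TPM in Rep1 against 1352 TPM in Rep2, *CFL1*, the actin-severing cofilin, at 2168 and 1243 TPM, and *CDC42*, a GTPase of protrusion, at 3025 and 283 TPM. Of the 54 whose mean reached 1 TPM, 14 were at least 2-fold higher in Rep1 and 23 in Rep2, beside 18.2% and 58.7% of all genes. With median-of-ratios scaling the counts became 25 and 12 of 52, beside 30.0% and 38.4% of all genes.

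**Figure D3:**
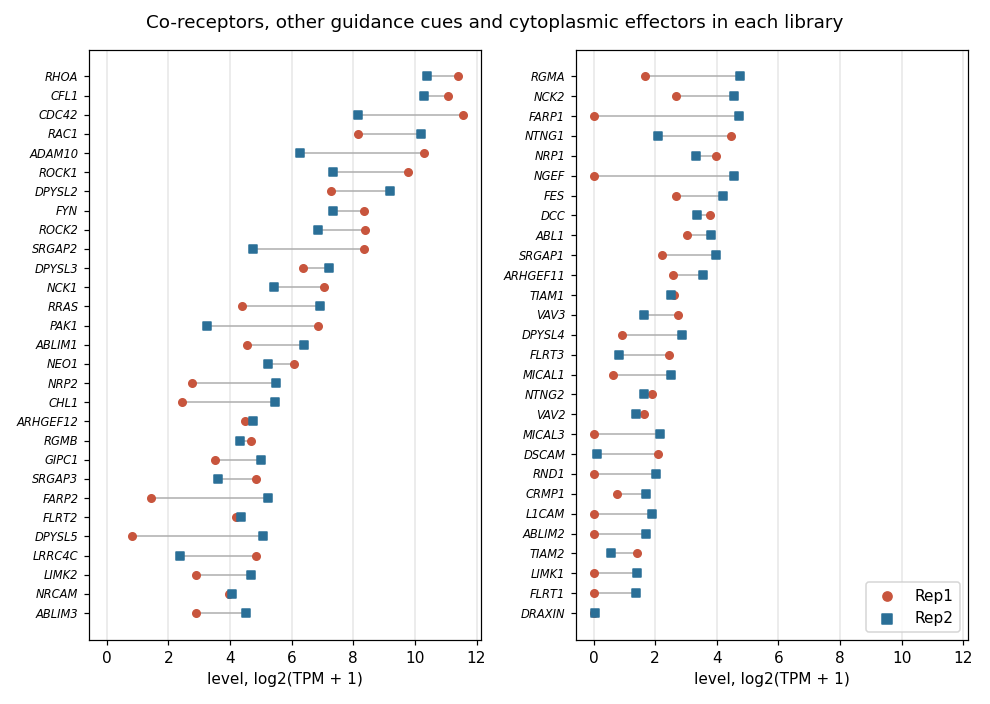
Level of the 57 listed companion genes in Rep1 (circles) and Rep2 (squares) as log2(TPM + 1), ordered by mean TPM. *RHOA*, *CFL1* and *CDC42* stand at the top, and 9 genes are at 0 in Rep1.

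Set against all genes, the members differed between the libraries about as often as other genes did. Of the 53 members whose mean reached 1 TPM, 31 were at least 2-fold higher in Rep2 on the log2(TPM + 1) scale (58.5%), beside 58.7% of the 11754 genes at that mean. In the other direction 8 members were higher in Rep1 (15.1%), beside 18.2% of those genes. The 8 were *EPHB1*, *EPHA7*, *PLXNC1*, *EPHA5*, *ROBO2*, *UNC5A*, *EPHA4* and *SEMA4G*. With 0.1 TPM added in place of 1 TPM, 10 members were higher in Rep1 and 32 in Rep2. The members' median log2 difference was -1.17, against -1.07 over all genes above 0 in at least 1 library. Scaling by the median of ratios, which took out a shift (Rep1 minus Rep2) of -1.19 on the log2 scale, gave 20 members higher in Rep2, beside 38.4% of genes, and 17 in Rep1, beside 30.0%. Under that scaling *EFNB1*, *EFNB2*, *EFNA3*, *EPHB3*, *SEMA3F*, *SEMA5B*, *SEMA6A*, *PLXNA4* and *SLIT1*, which were under 2-fold on the log2(TPM + 1) scale as deposited, joined those higher in Rep1, and the median differences of the ephrins and Slits changed sign. When the members listed at 0 in Rep1 were left out, an alternative chosen after seeing the data, 22 were higher in Rep2 and 8 in Rep1, beside 51.2% and 21.2% of genes. No test was possible with 1 condition and 2 libraries.

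**Figure D4:**
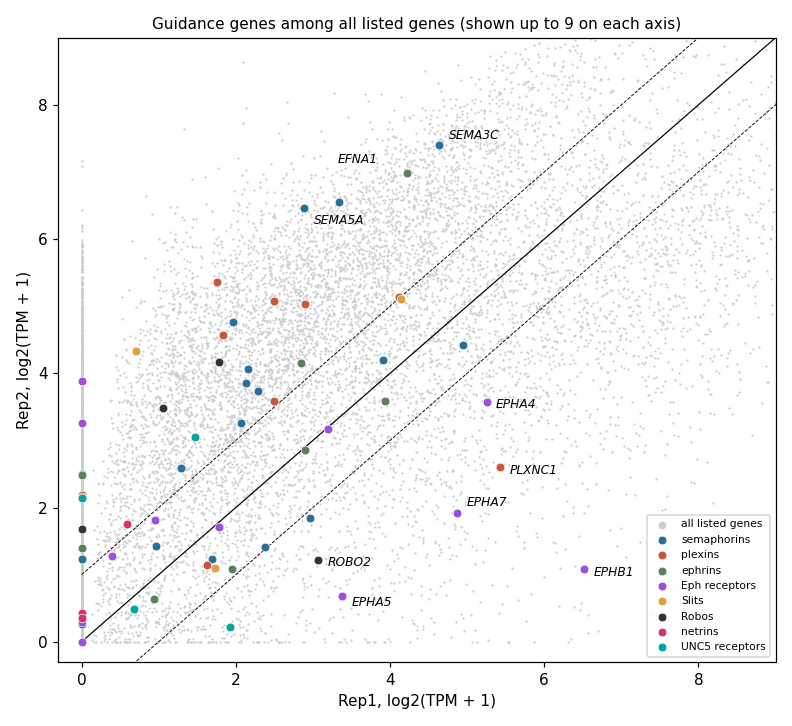
Rep1 against Rep2 as log2(TPM + 1) for all listed genes (grey) and for the members by family, shown up to 9 on each axis. The solid line marks equal levels and the dashed lines a 2-fold difference, and *EPHB1*, at 90.7 and 1.12 TPM, lies farthest below them among the members.

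The order of the members was loose. For the 63 members above 0 in either library, the log2(TPM + 1) levels of Rep1 and Rep2 correlated with Pearson's r at 0.445 and Spearman's rho at 0.461, a description across genes that share the same 2 libraries. Both were lower than over all 14693 listed genes above 0 in either library, at 0.708 and 0.719, and over the companion genes, at 0.764 and 0.679. Ligands alone had 0.731 and 0.718, near all genes, whereas receptors had 0.109 and 0.131. The part of the members' low levels and read numbers in these values was not tested. Of 1953 pairs of these members, 1222 (62.6%) stood in the same order in both libraries. In mean level, 955 of the 1953 pairs differed by over 1 single-library SD. On the log2(TPM + 1) scale this SD shrinks near 0 TPM, to 0.185 for *SEMA6B* against a median of 1.63 over the members. Pairs with such low genes therefore pass 1 SD more easily. None of the 62 pairs of neighbours in the order of mean level differed by over 1 SD, the largest gap being 0.694 SDs. Neighbours in a sorted list lie close by construction, so the count of neighbours says nothing about how firm the order is. The top member was the same in both libraries in 2 of 8 families, *EFNA1* of the ephrins and *SLIT2* of the Slits. In Rep1, 35 of the 47 members above 0 in both libraries may rest on fewer than 10 reads, since the smallest read numbers had a median of 3 there and 111 in Rep2.

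The members were long genes. Their median span in the annotation was 50771 bases against 27129 over all listed protein-coding genes, and 43.9% spanned at least 100 kb against 17.9%. *ROBO2* was the longest at 1773656 bases. Another annotated gene overlapped the span, introns included, of 28 of the 66 members. Whether exons overlap was not examined. Where they do and the use of strand is not given, reads could have been assigned to either gene.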

How the data were processed

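Bulk RNA-seq of 2 macaque optic nerve libraries was analysed. The authors used a SMARTer v4 kit for low RNA input. They trimmed by Trim Galore 0.6.6, aligned to Mmul_10 by STAR 2.7.1a, counted reads per gene by featureCounts 1.5.3 and normalized the counts, and the deposited values are TPM for 16684 genes. Gene lengths, strand and multiple alignments are not given in the sources used here. The table's Rep1 and Rep2 could not be paired with sample titles and were used as replicates of the condition. TPM gives no read totals, so no interval or detection limit per gene was available. Relative depth came from ratios of values, which came out as whole read numbers for 99.9% of 10168 genes detected in both (tolerance 1e-11), tested on simulated data.

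Differences were taken as log2(TPM + 1), which understates changes of low genes, at a 2-fold threshold where the mean TPM was 1 or more. No p-value was computed. The single-library SD came from the 200 genes nearest in level, with differences taken about 0. Coordinates and sequences were taken from the RefSeq annotation of Mmul_10, in which all 66 members were found. Python 3.11, numpy 2.4.6, pandas 2.3.3, scipy 1.17.1 and matplotlib 3.10.9 were used. Values were given for the 4 highest semaphorins, plexins, ephrins and Eph receptors, every Slit, Robo, netrin and UNC5 receptor, members at least 2-fold higher in Rep1, members at 0 in 1 library and at least 5 TPM in the other, *NRP1*, *NRP2*, *DCC*, *NEO1* and the 3 highest companion genes, and others by mean or range. Members were chosen by gene symbol alone, but this choice and those of lists and pairs of genes were made with earlier results of these data known. Marker lists not quoted in the text also had lower sums in Rep1: the summed levels in Rep1 and Rep2 were 30.7 and 219 TPM for oligodendrocyte precursors, 228 and 522 TPM for microglia and macrophages, 37.5 and 108 TPM for endothelium, 218 and 1176 TPM for pericytes and smooth muscle, and 1617 and 15124 TPM for meningeal fibroblasts. At least 2-fold higher in Rep2 were 6 of 8 microglia and macrophage markers and 4 of 6 endothelial markers. In these 2 lists *AIF1* (113 against 64.5 TPM) and *TEK* (6.10 against 1.36 TPM) were higher in Rep1.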

Additional observations from a re-analysis of the deposited data

How the results depend on the processing

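No paired analysis was possible because both libraries belong to the same condition. Leaving single libraries aside, 138 values of 58 results were recomputed, of which 129 kept within the spread or 1.5 times, 6 moved and 3 changed sign. With the median of ratios, which raises Rep1, the members at least 2-fold higher were 20 in Rep2 and 17 in Rep1, the companion genes 12 and 25, and the median log2 difference became 0.29 for the ephrins and 0.19 for the Slits. The share of member calls that were higher in Rep1 was 20.5% as deposited and 45.9% after this scaling, and over all genes 23.6% and 43.9%. Leaving out the 10 most abundant genes turned the Eph receptors' median from 0.014 to -0.14. The members with a mean of at least 10 TPM numbered 24 in Rep2 alone and 11 in Rep1 alone, and those at 1 TPM 55 and 40. Each of 2 libraries always lies within 1 SD of their mean, so single libraries say nothing of the stability of a mean. The geometric mean of a gene lies between its 2 libraries, so it could not leave that range either. Such geometric means are among the 129 kept values and say nothing more about stability. The members' median log2 difference also counted as kept, although it went from -1.17 to -0.30 with the median of ratios. The depth of Rep1 limits all members at a few TPM and some at higher levels. *PLXNB2*, at 16.4 TPM in Rep1, may rest on as little as 1 read there.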
